A study of Mus musculus with 9 samples.

Results

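The 10 genes described here, Hk1, Pfkl, Pfkm, Pfkp, Aldoa, Aldoc, Pgk1, Eno2, Pkm and Ldhb, encode enzymes of glycolysis. They were followed through 22 of the 22690 probe sets of a mouse expression array, namely every probe set that the platform annotation assigned to one of these genes alone, and the array named 12393 genes in all in this way. Glycolysis turns glucose into pyruvate in the cytosol and yields ATP and NADH without oxygen, and lactate dehydrogenase interconverts pyruvate and lactate. In the nervous system several steps are carried out by different isoenzymes in neurons and glia, and lactate released by glia can be taken up and burned by neurons. The disease studied was spinal muscular atrophy (SMA), in which motor neurons die when SMN protein runs short.

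The samples were laser-cut motor neurons of the lumbar cord from 9 mice, 1 array per animal, in groups of 3. Transplanted SMA mice received cells that the labels call NSC (neural stem cells, as the study is known). SMA mice and wild-type mice went through the same surgery with vehicle. Surgery was on postnatal day 1 and the animals were killed at 13 days, and the sources used here give no strain, allele, transgene, sex or cell dose. The cords of all 3 groups had been perfused with fixative. Values are MAS5 signals in arbitrary units, and differences are given on the log2(signal + 16) scale, where 1 is a doubling for bright probe sets and less than the true change for dim ones. Every array had a trimmed mean of 100, and medians were 31.4 to 35.8. Separate animals were used, so the spread within a group is that between mice plus that of capture and amplification.

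The captures held glial RNA beside that of neurons, and few motor neuron markers were bright enough to test. Of 9 such markers with a probe set, 2 passed the filter on dim signals (Isl2 and Ache), and the vesicular acetylcholine transporter Slc18a3 averaged 13.4 ± 11.9 (SD, n = 9 arrays). The neuronal filament Nefl averaged 871 ± 272, the myelin gene Mbp 10700 ± 1620 and the astrocyte water channel Aqp4 1410 ± 502. The hybridisation controls read 864, 1050 and 913 on the arrays numbered 3 of the transplanted SMA, SMA and wild-type groups, against 579 to 691 on the other 6 arrays. Summed signals of 9 skeletal muscle markers were 2431.8 (SMA 1) and 3018.1 (SMA 2), and 97.4 to 263.9 everywhere else. Xist, the transcript that silences an X chromosome in females, was uneven between groups and read 366.1 to 739.6 in transplanted SMA, 600.7, 879.5 and 47.6 in SMA and 23.5 to 32.9 in wild type. The Y-linked Eif2s3y read 0.1 to 0.5 on arrays 1 and 2 of transplanted SMA and SMA and 49 to 108.9 on the other 5 arrays. Transplanted SMA 3 thus carried both Xist (366.1) and Eif2s3y (84.8), and the cause was not tested. By these transcripts all wild-type arrays and SMA 3 read as male, and arrays 1 and 2 of transplanted SMA and SMA as female. Sex was therefore uneven in both comparisons with wild type and cannot be fully told apart from group there.

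No glycolytic probe set passed the test in any comparison. Of the 22 probe sets, 20 were among the brighter 50% that were tested, and the other 2 (1 each of Hk1 and Pfkp) averaged 19.1 ± 11.5 and 8.07 ± 5.48 over the 9 arrays (SD). With limma, 0 of 20 had an adjusted p under 0.05 in SMA minus wild type, where 0.0442% of all tested probe sets did, and 0 of 20 in transplanted SMA minus SMA and in transplanted SMA minus wild type, where 0% did. At an unadjusted p under 0.05 the counts were 2, 2 and 0 of 20, against 6.04%, 4.77% and 6.55% of all tested probe sets. The groups did not overlap for 1 of 20 glycolytic probe sets in each comparison, against 11.4%, 9.11% and 14.1% of all. The smallest adjusted p of a member was 0.793, 0.933 and 0.804.

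By size, the means of these 10 genes lay highest in the transplanted animals. Taking each gene by its brightest probe set, transplanted SMA had the highest mean of the 3 groups for 9 genes, and wild type for Pfkl. The lowest mean was in SMA for 6 genes and in wild type for 4 (Hk1, Pfkp, Aldoc and Ldhb). In transplanted SMA minus SMA all 10 differences were above 0, with a median of 0.20, where 50.3% of all tested probe sets were above 0 and their median was 0. Against wild type 9 of 10 transplanted means were higher, with a median of 0.22, against 48.5% of all and a median of -0.01. With Xist as a covariate this was 5 of 10, with a median of 0.02. Xist did not overlap between these 2 groups (366.1 to 739.6 against 23.5 to 32.9), so covariate and group cannot be told apart here. Within groups it varied most in SMA (600.7, 879.5 and 47.6). In SMA minus wild type 4 of 10 were above 0, with a median of -0.06, against 51% of all and a median of 0.01. The direction against wild type was not shared by the other glycolytic enzymes tested. Of these, 1 of 6 was above 0 in transplanted SMA minus wild type (median -0.26) and 4 of 6 in transplanted SMA minus SMA (median 0.18). The 2 comparisons with SMA share the 3 SMA arrays and those with wild type share the 3 wild-type arrays, so their directions are not independent of each other. Markers of glia were read beside these values, and their sums overlapped between the groups. All 11 tested microglial markers were lower in transplanted SMA than in SMA (median -0.79, 0 past the threshold). At an unadjusted limma p under 0.05 there were 5 of the 11, against 4.77% of all tested probe sets. Groups did not overlap for 3 of the 11, against 9.11% of all. The microglial sums were 6139.1, 6063.6 and 12559.1 in transplanted SMA and 11725.5 to 13573.2 in SMA, so only transplanted SMA 3 reached the SMA range. Of 10 tested astrocyte markers, Aldoc among them, 6 were higher in transplanted SMA than in SMA (median 0.1). Of 10 oligodendrocyte markers 8 were higher in transplanted SMA than in SMA (median 0.18), with sums of 31251.5 to 42306.3 in transplanted SMA and 23511.5 to 39905.6 in SMA. The 9 motor neuron markers summed to 193.4 to 374.2 in transplanted SMA, 118.9 to 229 in SMA and 155.2 to 215 in wild type, most of them too dim to test. Both tested ones, Isl2 and Ache, were higher on every transplanted array than on any SMA array, where 9.11% of all tested probe sets did not overlap. Their differences were 0.72 (SE 0.27) and 0.67 (SE 0.27), each with a limma adjusted p of 0.933. The part of these cell types in the glycolytic values was not tested.

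**Figure D1:**
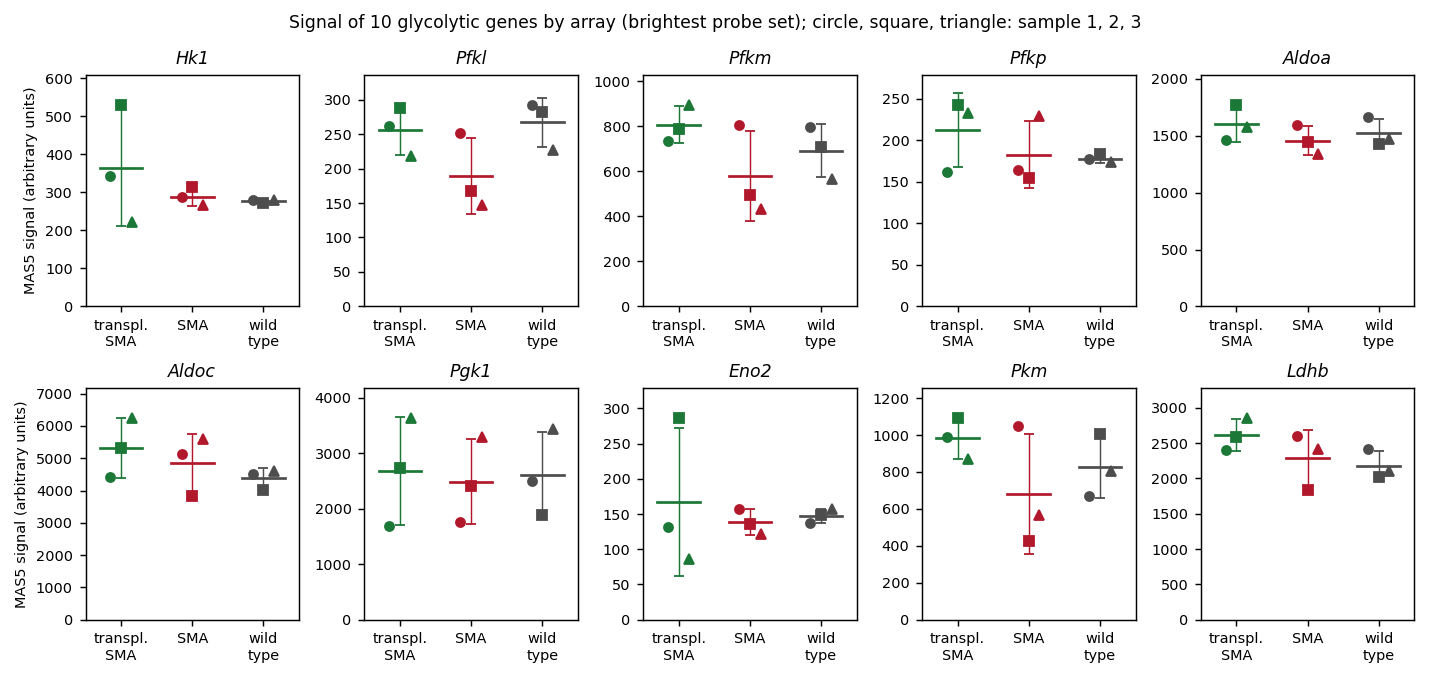
MAS5 signals (arbitrary units, vertical axes from 0) of the 10 glycolytic genes by their brightest probe set, with 1 point per array, a bar at the group mean and whiskers of 1 SD (n = 3). Groups run from transplanted SMA through SMA to wild type, and the points of the groups overlap in every panel.

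One array carried much of the transplanted mean. On transplanted SMA 2 all 10 genes were above the wild-type mean (median 0.26 on the log2 scale) and 5 of the 10 genes had their highest signal of all arrays there. Transplanted SMA 3 followed with 7 genes above and a median of 0.22, while transplanted SMA 1 had 5 above and a median of -0.01. Among SMA arrays, SMA 1 lay at 0.08, SMA 2 at -0.19 with 1 gene above the wild-type mean, and SMA 3 at -0.12. The medians of all tested probe sets were within -0.02 to 0.03 on these arrays, which share the authors' scaling. Without transplanted SMA 2 the median of the 10 genes was 0.12 against SMA, with 8 of 10 above 0, and 0.06 against wild type, with 5 of 10 above 0. The neuronal markers, 11 genes without Eno2, were highest on the same array, with a summed signal of 4579.1 against 1625.9 to 3538.4 elsewhere.

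**Figure D2:**
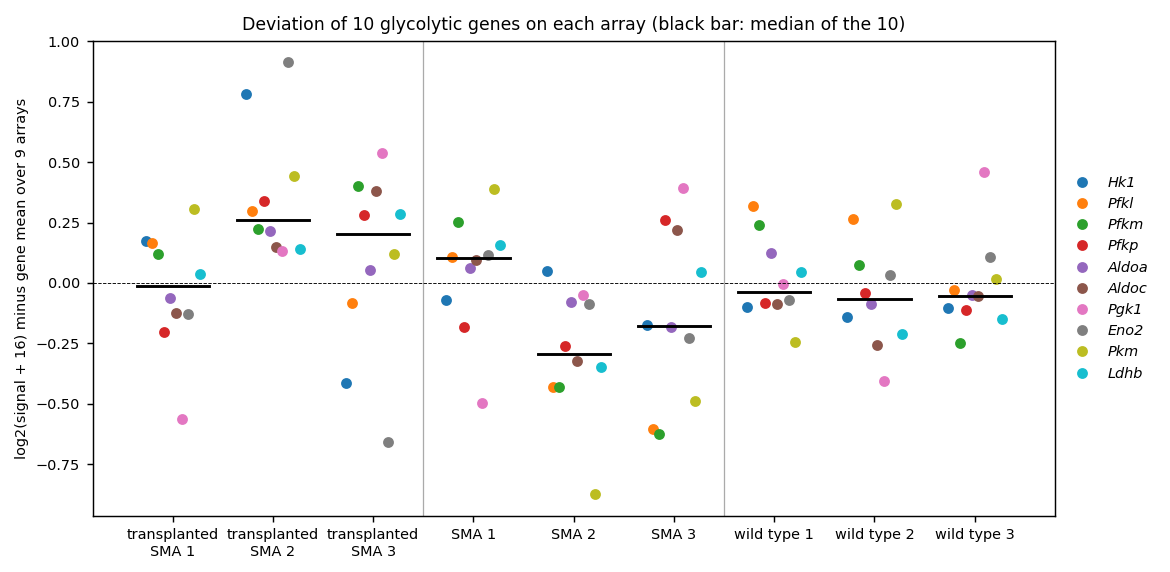
Difference of each glycolytic gene from its own mean over the 9 arrays, in log2(signal + 16), with a black bar at the median of the 10 genes on each array. The genes lie mostly above 0 on transplanted SMA 2 and mostly below 0 on SMA 2, and no gene has its largest SD in wild type.

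The first steps trap glucose in the cell. Hk1, the hexokinase of brain, which sits on mitochondria and phosphorylates glucose, read 342.5, 529.9 and 222.5 in transplanted SMA, 287, 313.3 and 265.4 in SMA and 280.6, 272.3 and 279.7 in wild type. Transplanted SMA thus held both the highest and the lowest array, and wild type varied little. Differences were 0.24 (SE 0.26) for transplanted SMA minus SMA, 0.29 (SE 0.26) for transplanted SMA minus wild type and 0.05 (SE 0.26) for SMA minus wild type, none past the threshold. Without transplanted SMA 2 the first was -0.06 and the second -0.01.

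Phosphofructokinase, which commits sugar to glycolysis and is its main point of control, is built from the subunits Pfkl (named for liver), Pfkm (muscle) and Pfkp (platelet), all of which are made in brain. These 3 genes supply 1 enzyme. The bases before their outermost annotated starts are shown, with Pgk1, whose promoter is a textbook target of the hypoxia factor HIF-1. Sequences are from RefSeq on GRCm38.p6, 250 bases each read 5′ to 3′ in the gene's direction up to the base before the start, and capitals mark ACGTG or GCGTG on either strand, the core letters that HIF-1 binds and that E-boxes can share.
Pfkl, chr10:78009808-78010057, minus strand: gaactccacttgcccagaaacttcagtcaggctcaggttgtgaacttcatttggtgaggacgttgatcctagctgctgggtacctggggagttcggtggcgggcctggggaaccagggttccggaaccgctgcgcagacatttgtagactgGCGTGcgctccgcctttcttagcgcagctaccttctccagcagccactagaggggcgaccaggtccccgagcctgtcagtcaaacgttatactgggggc
Pfkm, chr15:98092339-98092588, plus strand: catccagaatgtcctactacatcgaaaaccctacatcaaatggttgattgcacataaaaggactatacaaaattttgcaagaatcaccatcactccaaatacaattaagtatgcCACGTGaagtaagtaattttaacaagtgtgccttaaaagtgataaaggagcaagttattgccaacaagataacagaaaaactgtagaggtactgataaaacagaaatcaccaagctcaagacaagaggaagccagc
Pfkp, chr13:6648772-6649021, minus strand: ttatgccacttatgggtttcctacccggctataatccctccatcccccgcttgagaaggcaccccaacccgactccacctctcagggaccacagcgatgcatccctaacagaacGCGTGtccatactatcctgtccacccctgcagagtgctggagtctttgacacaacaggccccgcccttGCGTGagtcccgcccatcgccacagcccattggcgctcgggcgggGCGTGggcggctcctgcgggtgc
Pgk1, chrX:106186850-106187099, plus strand: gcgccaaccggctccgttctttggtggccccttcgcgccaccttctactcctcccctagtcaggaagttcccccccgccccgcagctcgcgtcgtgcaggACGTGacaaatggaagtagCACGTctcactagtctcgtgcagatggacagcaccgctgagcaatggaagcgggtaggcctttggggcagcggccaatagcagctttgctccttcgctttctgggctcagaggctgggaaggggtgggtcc
In Pfkm the capitals are ACGTG on both strands overlapping in 1 palindrome, in Pgk1 they are a separate copy on each strand, Pfkp has 3 copies of GCGTG and Pfkl 1. All 10 genes had such windows in the table, 18 in all, some of them overlapping. The letters stood in the outermost window of 6 of the 10 genes, against 38.6% of the 27025 genes in the table, and the G and C content of the windows shown was 59.2% for Pfkl, 36.4% for Pfkm and 62.8% for both Pfkp and Pgk1, where the median of all windows was 52.4%. Pfkm had further annotated starts, whose windows had G and C contents of 51.2%, 60.4% and 52.8%. A match is a run of letters and not a measured site, and no binding was measured here. The relation of these letters to the signals was not tested.

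Pfkl had the smallest unadjusted p among brightest probe sets in SMA minus wild type. Its brightest probe set read 261.5, 288.2 and 217.8 in transplanted SMA, 251, 168 and 146.8 in SMA and 292.6, 281.6 and 226.9 in wild type. SMA 2 and SMA 3 lay below every other array and SMA 1 lay within the wild-type range. The difference was -0.49 (SE 0.21, limma adjusted p = 0.818) for SMA minus wild type and 0.43 (SE 0.21, adjusted p = 0.933) for transplanted SMA minus SMA. The other Pfkl probe set read 175.1, 151.3 and 155.9 in transplanted SMA, 136.8, 93.4 and 87.6 in SMA and 136.5, 128.9 and 104.3 in wild type. There every transplanted array lay above every SMA and wild-type array, with 0.56 (SE 0.19, adjusted p = 0.933) against SMA and 0.35 (SE 0.19, adjusted p = 0.804) against wild type, and it was the glycolytic probe set without overlap in both comparisons. The 2 probe sets differ against wild type, where the brighter gave -0.06.

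Pfkm repeated the split among SMA animals. It read 734, 790.1 and 896.4 in transplanted SMA, 808.2, 497.1 and 431.8 in SMA and 799.3, 710.8 and 565.5 in wild type. SMA 2 and SMA 3 were again the lowest of all arrays, while SMA 1 was the second highest. The mean of 807 ± 82.5 in transplanted SMA against 579 ± 201 in SMA (SD, n = 3 each) gave 0.51 (SE 0.23, adjusted p = 0.933), with an unadjusted p of 0.0497. SMA minus wild type gave -0.29 (SE 0.23). With 1 array left out, Pfkm ran from 0.33 to 0.77 for transplanted SMA minus SMA. For SMA minus wild type it ran from -0.55 to -0.11. The largest differences, 0.77 and -0.55, came without SMA 1, and none passed the threshold.

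Over all 9 arrays Pfkp did not follow the other subunits. Its r was -0.09 with Pfkl and 0.11 with Pfkm (n = 9), but 0.57 and 0.46 without the arrays numbered 3 (n = 6). Its tested probe set read 161.4, 242.5 and 232.6 in transplanted SMA, 164, 154.7 and 229.1 in SMA and 177.3, 182.9 and 173.1 in wild type. Transplanted SMA 2, transplanted SMA 3 and SMA 3 stood high, and the other arrays lay together at 154.7 to 182.9. Transplanted SMA differed from SMA by 0.20 (SE 0.20) and SMA from wild type by 0.02 (SE 0.20).

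Aldolase splits the phosphorylated sugar into trioses, with Aldoa as the widespread and Aldoc, a marker of astrocytes, as the brain form. Aldoa was the steadiest of the 10, with a highest over lowest array of 1.32 at its brightest probe set, and its 4 probe sets gave -0.02 to 0.17 in transplanted SMA minus SMA, -0.12 to -0.04 in SMA minus wild type and -0.07 to 0.07 in transplanted SMA minus wild type. All 4 are of a type whose probes can also match other transcripts, so near-identical copies of Aldoa may contribute. The muscle transcripts on SMA 1 and SMA 2 came with signals of 1592.2 and 1442.5 at the brightest Aldoa probe set, within the range of the other arrays (1340.9 to 1772.8). At another probe set SMA 1 read 1381.8, the highest of all arrays, and SMA 2 read 898.1. The part of muscle RNA in the Aldoa values was not tested.

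For Aldoc the probe sets disagreed. The brighter read 4403.9, 5317.4 and 6243.4 in transplanted SMA, 5126.5, 3829.3 and 5586.2 in SMA and 4509.2, 4016.4 and 4617.4 in wild type, and differed by 0.14 (SE 0.17) for transplanted SMA minus SMA and 0.13 (SE 0.17) for SMA minus wild type. The dimmer read 149, 258.5 and 310.8 in transplanted SMA, 333.2, 262.6 and 429.7 in SMA and 227.2, 223.7 and 181 in wild type. At the dimmer one every SMA array lay above every wild-type array, and SMA minus wild type was 0.64 (SE 0.26, adjusted p = 0.793), the largest member difference in that comparison. Transplanted SMA minus SMA was -0.52 (SE 0.26, adjusted p = 0.933) there, opposite in sign to the brighter probe set. Summed astrocyte markers, without Aldoc, were 6242.1 to 10046.1 in transplanted SMA, 6181.4 to 11947.1 in SMA and 6395.6 to 8094.6 in wild type, and their part in the Aldoc values was not tested.

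Pgk1, phosphoglycerate kinase, makes the first ATP of the payoff phase and is the X-linked member of the set. Its brightest probe set read 1687.9, 2738 and 3634.5 in transplanted SMA, 1767.6, 2415.3 and 3284.8 in SMA and 2492.4, 1881.2 and 3437.2 in wild type. Array 3 was the highest of its group each time, as it was for the hybridisation controls, and the groups overlapped widely. Differences were 0.09 (SE 0.31) for transplanted SMA minus SMA and -0.07 (SE 0.31) for SMA minus wild type. A second probe set, of the type that names its gene without shared probes, read 1401.1, 1488.6 and 1685.9 in transplanted SMA, 1559.5, 1174.5 and 1301.6 in SMA and 1487.7, 1523.8 and 1377.4 in wild type. It showed no such place for array 3 in SMA and wild type and gave 0.18 (SE 0.15) and -0.13 (SE 0.15). The third probe set was highest on SMA 3 and transplanted SMA 3 (401.5 and 365.7, against 206.3 to 296.2 elsewhere). With Xist as a covariate, the brightest probe set gave 0.50 (SE 0.43) in SMA minus wild type.

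**Figure D3:**
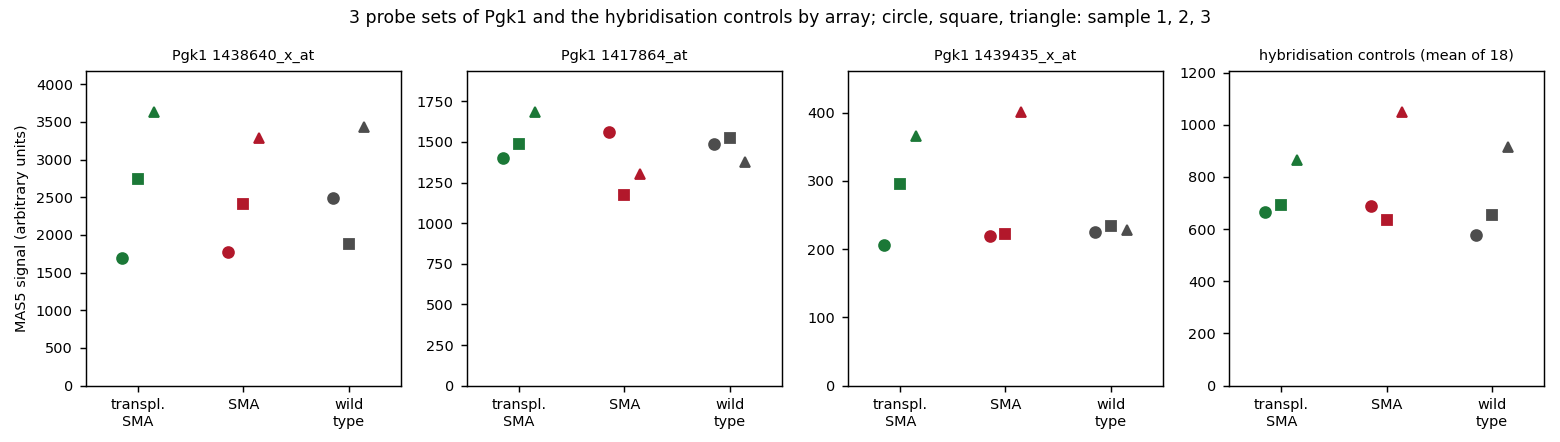
Signals (arbitrary units, axes from 0) of the 3 probe sets of Pgk1 and the mean of 18 hybridisation control probe sets, with 1 point per array. Triangles mark the arrays numbered 3, which are highest in each group at the brightest Pgk1 probe set and for the controls, but not at the second Pgk1 probe set in SMA and wild type.

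Eno2, the enolase of neurons and long used as a neuronal marker, had the widest range of the 10, with a highest over lowest array of 3.34. It read 131, 286.3 and 85.8 in transplanted SMA, 157.8, 135.2 and 121.2 in SMA and 136.8, 148.4 and 156.8 in wild type. Both extremes were transplanted animals and the other groups were narrow. Differences of 0.11 (SE 0.32) for transplanted SMA minus SMA and -0.09 (SE 0.32) for SMA minus wild type did not pass, and transplanted SMA minus SMA was -0.33 (SE 0.22) without transplanted SMA 2.

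Pkm, pyruvate kinase, makes pyruvate and ATP in the last step, and its single probe set does not tell the 2 splice forms apart here. It read 991.5, 1091.7 and 868.3 in transplanted SMA, 1049.4, 428.2 and 564.4 in SMA and 672.1, 1005 and 806.9 in wild type. SMA 2 and SMA 3 were the lowest of all arrays, as for Pfkl and Pfkm, and SMA 1 was the second highest. SMA 3 also had the highest ratio of 3′ to 5′ actin control signal, a sign of RNA quality, at 4.32 against 2.48 to 3.66 elsewhere, while SMA 2 had 2.97. The same ratio for the Gapdh control was highest on SMA 1 (4.26), with 3.92 on SMA 3 and 3.3 on SMA 2. The 18S signal of SMA 3, 2765, was exceeded only by the 2940 of wild type 3, against 839 to 1832 on the other 7 arrays. The part of RNA quality in these values was not tested. Transplanted SMA minus SMA was 0.62 (SE 0.29, adjusted p = 0.933), the largest member difference in that comparison, and its 95% interval was -0.02 to 1.25. SMA minus wild type was -0.36 (SE 0.29), and -0.71 without SMA 1 or -0.08 without SMA 2. In captures of mixed cells a lower signal may come from fewer cells of a type or from less RNA per cell, which cannot be told apart.

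Ldhb, the lactate dehydrogenase subunit of heart and neurons that favours lactate use, was alike across its probe sets against wild type. All 4 gave 0.25 or 0.26 in transplanted SMA minus wild type (SE 0.16 to 0.23), 0.08 to 0.29 in transplanted SMA minus SMA and -0.04 to 0.17 in SMA minus wild type. At the brightest the values were 2398.2, 2581.1 and 2854.6 in transplanted SMA, 2607.3, 1835.3 and 2414.4 in SMA and 2417.3, 2017.3 and 2110.8 in wild type. Here transplanted SMA overlapped wild type by 1 array each way, and limma's adjusted p was 0.842.

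**Figure D4:**
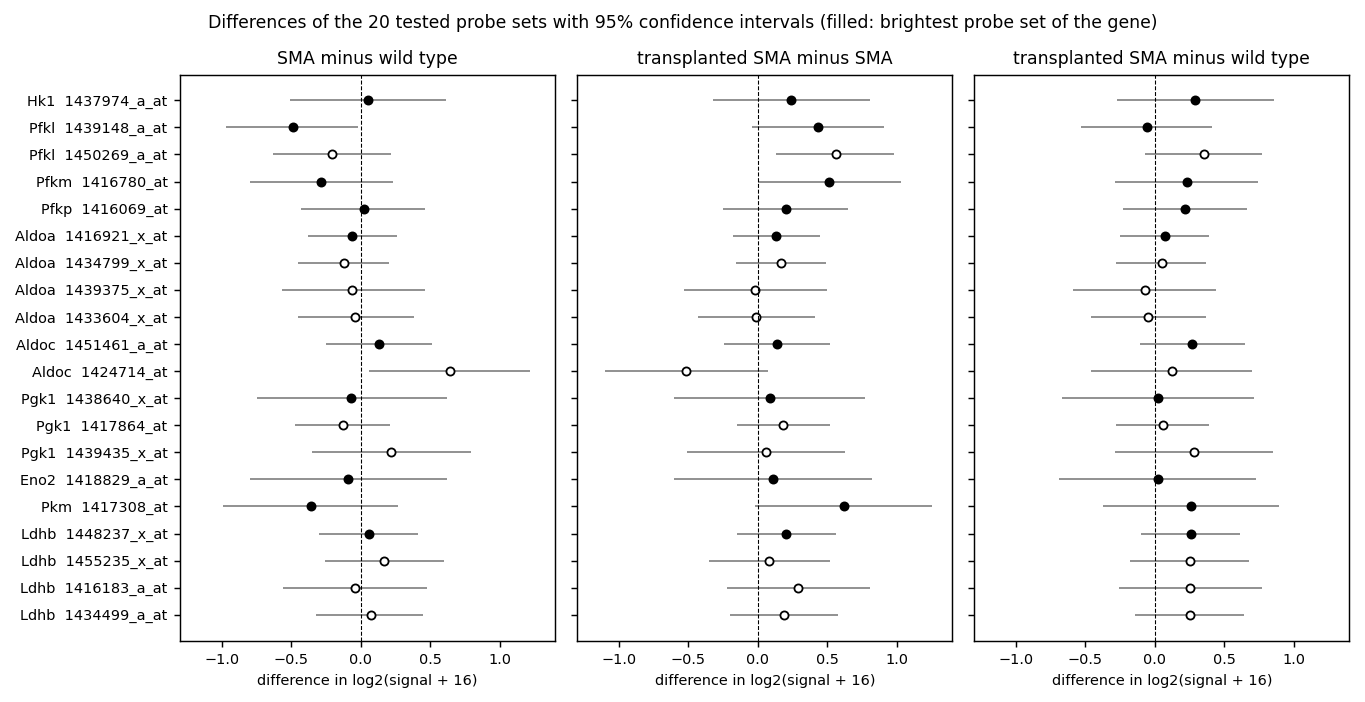
Differences in log2(signal + 16) of the 20 tested glycolytic probe sets in the 3 comparisons, with 95% confidence intervals from limma, filled for the brightest probe set of a gene. In transplanted SMA minus SMA the points lie mostly right of 0, and the intervals of 2 probe sets in SMA minus wild type (Pfkl and Aldoc) and of 1 Pfkl probe set in transplanted SMA minus SMA exclude 0 before adjustment, with Pfkm at the edge.

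The precision of these values bounds what could be seen. The median SE over the tested members was 0.21 in each comparison, so a difference of the size of the medians above is about 1 SE for most genes. The brightest Aldoa probe set had the smallest SE, 0.14, with 95% intervals of -0.38 to 0.26 for SMA minus wild type and -0.18 to 0.45 for transplanted SMA minus SMA. In data simulated for SMA minus wild type, limma recovered 58% of probe sets changed by 1 on the log2 scale and 92% of those changed by 2, among 11313 probe sets. The simulation changed 50 probe sets by each of 1, 2, 3 and 4, and gave 9 false calls. In the measured data 5, 0 and 0 probe sets passed, and the simulated shares need not hold where so few change.

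Over the 9 arrays no relation between a glycolytic gene and a marker list passed correction. Each of the 10 genes was set against the mean log2 of neuronal, astrocyte, oligodendrocyte and microglial markers, 40 relations, chosen after the values were seen. Eno2 had r = 0.82 with the neuronal list (Spearman's rho 0.80, n = 9, exact permutation p = 0.0103 and 0.0138, adjusted p = 0.0954 and 0.17), 0.60 without SMA 3 and transplanted SMA 2 and 0.93 without the arrays numbered 3. Hk1 had 0.75 and Aldoa 0.77 with that list, but these were 0.31 and 0.28 without the same 2 arrays and rest on them.

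With the astrocyte list the highest were Pfkp at r = 0.82 (rho 0.63), Pgk1 at 0.81 (rho 0.75) and Aldoc at 0.79 (rho 0.77), each with an adjusted exact permutation p of 0.0954 for r and 0.17 to 0.234 for rho (n = 9). Without SMA 3 and transplanted SMA 3 they were 0.68, 0.71 and 0.58, and without the arrays numbered 3 they were 0.73, 0.78 and 0.58. With the oligodendrocyte list Pfkp had 0.76 and Pgk1 0.77, at the same adjusted exact permutation p of 0.0954 for r (n = 9). The smallest p for rho was that of Hk1 with this list, a negative relation. It had rho -0.83 (exact permutation p = 0.00827, adjusted p = 0.17) and r = -0.33. With the microglial list Hk1 had r = -0.66 (rho -0.68) and Pfkl r = -0.6 (rho -0.77). Of the 40 relations 20 had a positive r. With the neuronal list Pfkp, Pgk1 and Aldoc stood at -0.01, -0.43 and -0.11, but at 0.80, 0.44 and 0.84 without the arrays numbered 3. Likewise Eno2 had -0.21 with the astrocyte list and 0.64 without those arrays, so a contrast between the lists rests on the arrays numbered 3. All arrays share their scaling, and each list stands for bulk RNA of a capture.

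**Figure D5:**
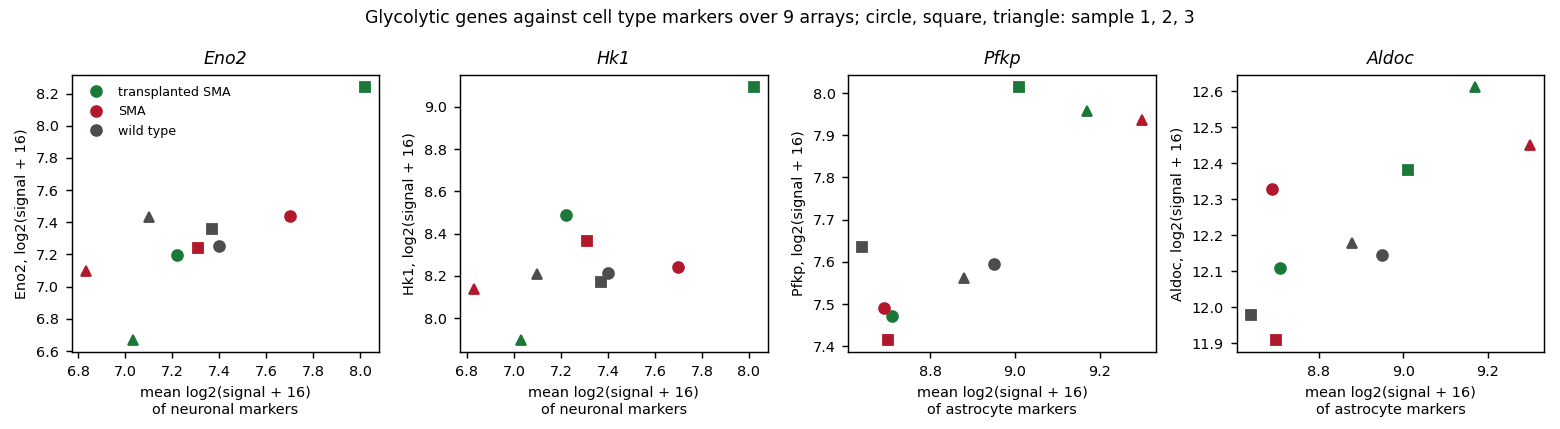
Eno2 and Hk1 against the mean log2(signal + 16) of 11 neuronal markers, and Pfkp and Aldoc against that of 10 astrocyte markers, with 1 point per array. Transplanted SMA 2 lies at the upper right for Eno2 and Hk1, and SMA 3 and transplanted SMA 3 lie at the right for Pfkp and Aldoc.

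Among themselves the 10 genes formed 45 pairs, of which 34 had a positive r and 0 passed (median r 0.27, range -0.45 to 0.89). The smallest adjusted exact permutation p was 0.0914, for Aldoc with Ldhb (r = 0.88, rho 0.82, n = 9), which was 0.89 without SMA 3 and transplanted SMA 3. Hk1 and Eno2 had r = 0.89 but rho 0.53, and r was -0.18 without transplanted SMA 2 and 3, so the relation rests on those arrays. The pairs of Pfkl, Pfkm and Pkm had r = 0.73 to 0.81 and rested on SMA 2 and SMA 3, without which r was 0.09 to 0.13.

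Isoenzyme balance was read within each array, where scaling cancels. Ldhb minus Ldha, the subunit that favours lactate formation, averaged 1.64 ± 0.42 in transplanted SMA, 1.65 ± 0.77 in SMA and 1.02 ± 0.27 in wild type (SD of log2 differences, n = 3 each). The transplanted SMA and SMA means were thus 0.62 and 0.63 above that of wild type, with exact permutation p = 0.2 and 0.3 (two-sided; 3 against 3 arrays cannot go below 0.1) and 0.9 after adjustment over 12 tests. Array 3 was the highest of its group each time (2.11, 2.54 and 1.33), and the differences were 0.38 without transplanted SMA 3 and 0.18 without SMA 3. Hk1 minus Hk2 differed by 0.49 between transplanted SMA and SMA (exact p = 0.2), or 0.26 without transplanted SMA 2. Aldoc minus Aldoa differed by 0 and Pfkp minus Pfkm by -0.31 (exact p = 0.6), or 0.03 without SMA 3. For Eno2 there was no such pair, since no probe set named Eno1 alone.

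Of the 15 remaining glycolytic enzymes listed, 9 had a probe set of their own and 6 were bright enough to test. None passed in any comparison by limma. At an unadjusted p under 0.05 there were 3 of 6 in SMA minus wild type, against 6.04% of all tested probe sets. There were 0 in the comparisons with transplanted SMA, against 4.77% (minus SMA) and 6.55% (minus wild type). Groups did not overlap for 4 of 6 in SMA minus wild type, against 11.4% of all tested probe sets. With transplanted SMA this held for 0 of 6 (minus SMA) and 2 of 6 (minus wild type), against 9.11% and 14.1%. Medians were -0.4 in SMA minus wild type, 0.18 in transplanted SMA minus SMA and -0.26 in transplanted SMA minus wild type. Tpi1, which interconverts the trioses, averaged 896 ± 66.8 in SMA and 1250 ± 139 in wild type (SD, n = 3 each; -0.47, SE 0.16, adjusted p = 0.686) and was lower in every SMA and every transplanted array than in any wild-type array. Bpgm, which makes bisphosphoglycerate in red cells, averaged 786 ± 101 in SMA and 1310 ± 172 in wild type (-0.72, SE 0.19, adjusted p = 0.534). The other 4 red cell markers summed to 472.3 to 935.2 in transplanted SMA, 680.4 to 966.8 in SMA and 1298 to 2492.4 in wild type, most of it from Alas2, which makes heme precursor. Among them Hba-a1 and Epb42 were too dim to test, and Slc4a1 was highest of all arrays on SMA 2 (335.4, against 46.9 and 101.4 on the other SMA arrays and 144.8 to 206.6 in wild type). The part of red cell RNA in the Bpgm value was not tested.

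Eno3, the enolase of muscle, read 80.7, 109.5 and 50.7 in SMA and 32.5, 40.2 and 44.5 in wild type (0.77, SE 0.23, adjusted p = 0.599). Its 2 highest arrays were SMA 1 and SMA 2, those with the muscle transcripts, whose part in the value was not tested. Pgam1, phosphoglycerate mutase, gave -0.33 (SE 0.21) in SMA minus wild type with no overlap of the groups. Ldha gave -0.57 (SE 0.33), with SMA 3 at 401.9 far below SMA 1 and SMA 2 at 1104.3 and 805.6, and Hk2 gave 0.05 (SE 0.28). Gapdh, named alone only by control probe sets, averaged 3730 ± 697 in transplanted SMA, 3710 ± 526 in SMA and 3660 ± 289 in wild type at its 3′ control. Gpi1 has no value here.

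Transcripts of the fuel transporters peaked on different arrays. Slc2a1, the glucose transporter of vessels and glia, read 302.7, 344.2 and 988.9 in SMA against 346.4 to 417.7 in transplanted SMA and 222.5 to 437 in wild type. Slc16a1, a lactate and pyruvate transporter, read 222.2, 341.1 and 1015.3 in SMA, 505 to 555.6 in transplanted SMA and 422.9 to 611.9 in wild type. SMA 3 was the highest array for both, and SMA minus wild type was 0.69 (SE 0.39) and -0.25 (SE 0.42). Slc2a3, the glucose transporter of neurons, was highest on SMA 1 (273.7, against 130.7 on SMA 3) and gave 0.38 (SE 0.31). Of 6 tested transport genes 0 passed in each comparison, with 0 at an unadjusted limma p under 0.05. Of all tested probe sets 0.0442% passed in SMA minus wild type and 0% in the comparisons with transplanted SMA. At the unadjusted p the share of all was 6.04% in SMA minus wild type. It was 4.77% in transplanted SMA minus SMA and 6.55% in transplanted SMA minus wild type.

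Pathways that branch from glycolysis gave few genes at small unadjusted p, and 0 members passed by limma in any list. Of all tested probe sets 6.04% had an unadjusted limma p under 0.05 in SMA minus wild type. It was 4.77% in transplanted SMA minus SMA and 6.55% in transplanted SMA minus wild type. In that order, counts were 1, 1 and 1 of 3 genes of gluconeogenesis and 1, 1 and 0 of 6 pentose phosphate genes. They were 1, 1 and 1 of 6 glycogen genes and 0, 0 and 1 of 6 pyruvate dehydrogenase genes. For 11 tricarboxylic acid cycle genes they were 1, 0 and 0. Gpd1, the cytosolic glycerol phosphate dehydrogenase that reoxidises NADH, averaged 263 ± 143 in transplanted SMA, 126 ± 38.6 in SMA and 225 ± 41.6 in wild type (0.89, SE 0.32, adjusted p = 0.933, for transplanted SMA minus SMA; -0.79, SE 0.32, adjusted p = 0.788, for SMA minus wild type). Its mitochondrial partner Gpd2 gave -0.54 (SE 0.20) in SMA minus wild type. The 6 tested genes of NADH shuttles were all lower in SMA than in wild type (median -0.30) and all higher in transplanted SMA than in SMA (median 0.26), over the same SMA arrays. Of all tested probe sets 51% and 50.3% were above 0 in these comparisons. At an unadjusted limma p under 0.05 there were 2 and 1 of the 6 genes, against 6.04% and 4.77% of all.

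Taldo1, transaldolase of the pentose phosphate pathway, averaged 1560 ± 268 in transplanted SMA, 1070 ± 67.1 in SMA and 1540 ± 304 in wild type (0.52, SE 0.18, for transplanted SMA minus SMA; -0.51, SE 0.18, for SMA minus wild type), and SMA did not overlap either group. Of all tested probe sets 9.11% did not overlap in transplanted SMA minus SMA and 11.4% in SMA minus wild type. The list of 6 pentose phosphate genes had medians of -0.06 in transplanted SMA minus SMA and -0.02 in SMA minus wild type. Fbp1, which reverses the phosphofructokinase step, averaged 105 ± 22.5 in transplanted SMA, 61.5 ± 19.9 in SMA and 52.1 ± 2.54 in wild type (0.66, SE 0.21, adjusted p = 0.933, and 0.82, SE 0.21, adjusted p = 0.523, for transplanted SMA minus SMA and minus wild type). Pck2, a mitochondrial enzyme that makes phosphoenolpyruvate, gave 0.46 (SE 0.18) in SMA minus wild type. Of the glycogen genes, Ugp2, which makes UDP-glucose, gave -0.52 (SE 0.17) in SMA minus wild type and Pygl, a glycogen phosphorylase, -0.88 (SE 0.36) in transplanted SMA minus SMA.

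Further downstream, pyruvate dehydrogenase genes had medians of -0.15 in SMA minus wild type and 0.13 in transplanted SMA minus SMA (6 tested), with Dld, a subunit shared with other complexes, at -0.42 (SE 0.18) in transplanted SMA minus wild type. The 11 tested genes of the tricarboxylic acid cycle had medians of -0.06 in SMA minus wild type, 0.06 in transplanted SMA minus SMA and 0.02 in the comparison of transplanted SMA with wild type. Among them Idh3a, of the NAD-linked isocitrate dehydrogenase, gave -0.41 (SE 0.18) in SMA minus wild type. The 2 phosphofructokinase regulators with a probe set, Pfkfb2 and Pfkfb3, averaged 12.2 ± 2.96 and 30.3 ± 9.94 (SD, n = 9) and were too dim to test.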

How the data were processed

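Laser-cut motor neurons of 9 mice were hybridised 1 animal per array after 2 rounds of amplification, per the labels' protocols. The deposited intensity values are MAS5 signals, per the submitters' processing notes, with a trimmed mean of 100 on each array (2% off each end) when recomputed. The sources used here give neither the MAS5 version nor detection calls.

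From these, 64 control probe sets were left out, 16 was added and log2 taken, and the brighter 50% by mean log2 signal was tested (11313 probe sets, lowest mean 5.63). limma 3.58.1 in R 4.3.3 (lmFit, eBayes with trend) fitted 1 mean per group over 9 arrays, with 6 residual and 4.93 prior degrees of freedom. P-values are two-sided, Benjamini-Hochberg adjusted over all tested probe sets, with a threshold of 0.05. The self-test used simulated data. Depth has no counterpart on arrays, and 3 arrays per group limit the precision.

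Names come from the platform annotation, and a gene was read by its brightest probe set naming it alone. Named were all members, fixed enzymes and transporters, and up to 3 genes of each further list with an unadjusted p under 0.05. The members, lists and alternatives were chosen with earlier results of these data known, and the correlations after the values were seen. Correlations used all 9 arrays with exact permutation and were run in Python 3.11.15. Pairing by sample number was not assumed, since not every same-numbered pair correlated above 0.1, although the arrays numbered 3 stand apart together. Of the planned isoenzyme tests 12 were run, and those of Eno2 against Eno1 were not, since no probe set names Eno1 alone. The alternatives covered normalization, pseudocount, filter, variance model, weights, block, left-out arrays and covariates.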

Additional observations from a re-analysis of the deposited data

How the results depend on the processing

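None of the 20 glycolytic probe sets passed under any of the 26 alternatives per comparison, with a lowest adjusted p of 0.332 in SMA minus wild type, 0.54 in transplanted SMA minus SMA and 0.243 in transplanted SMA minus wild type. The sample number as a replicate block left the medians of the 10 genes at -0.06, 0.20 and 0.22 and the calls over all probe sets at 5, 0 and 0. Deviations of same-numbered arrays correlated at -0.083 to 0.453, not above 0.1 for every pair, so no pairing was assumed, but the arrays numbered 3 correlated above 0 in all 3 comparisons (0.136 to 0.453) and shared high hybridisation controls. The median of all tested probe sets lay between -0.04 and 0.03 under these settings. Depth has no measure here, and brightness alone judged the dim probe sets. For the results below that changed, the cause was not tested.

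With 1 array left out, the median of the 10 genes was -0.09 to -0.02 in SMA minus wild type, 0.11 to 0.32 in transplanted SMA minus SMA and 0.06 to 0.29 in transplanted SMA minus wild type. With Xist as a covariate it was -0.23, 0.26 and 0.02, though Xist did not overlap between transplanted SMA and wild type. Over all probe sets the calls in SMA minus wild type were 2 among the brighter 25%, 1 without shared-probe sets, 0 without SMA 1 and SMA 2 and with muscle transcripts or Xist as covariates, 14 without the arrays numbered 3, and 2 to 13 with 1 array left out (2 when that was wild type 1, wild type 2 or SMA 1, 3 for wild type 3, 9 for SMA 2 and 13 for SMA 3). Transplanted SMA minus SMA had 6 without the arrays numbered 3, 3 with Xist and 0 to 4 with 1 array left out (4 without SMA 3). Transplanted SMA minus wild type had 2 with a pseudocount of 1, 8 with array weights, 8 without SMA 1 and SMA 2, 4 without the arrays numbered 3, 6 with muscle transcripts, 3 with hybridisation controls, 8 with the 6 arrays compared, 5 at a threshold of 0.10 and 0 to 7 with 1 array left out (7 without SMA 3, 1 without transplanted SMA 2).

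The following differences turned in sign, none past the threshold either way. In SMA minus wild type, array weights gave Pfkp -0.07, Pgk1 0.04 and Ldhb -0.06. Leaving out SMA 1 and SMA 2 gave Hk1 -0.06 and Pgk1 0.38, and leaving out the arrays numbered 3 gave Pfkp -0.16, Eno2 0.03 and Ldhb -0.01. Muscle transcripts gave Hk1 -0.06 and Pgk1 0.26, Xist gave Hk1 -0.27 and Pgk1 0.50, hybridisation controls gave Pfkp -0.02 and the mean of all probe sets gave Pgk1 0.01. With 1 array left out Hk1 ran from -0.01 to 0.11, Pfkp from -0.14 to 0.12, Aldoa from -0.13 to 0, Pgk1 from -0.29 to 0.16 and Ldhb from -0.05 to 0.20.

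For transplanted SMA minus SMA, leaving out SMA 1 and SMA 2 gave Pfkp -0.12, Aldoc -0.08 and Pgk1 -0.36, and muscle transcripts gave Pfkp -0.09, Aldoc -0.07 and Pgk1 -0.24. Xist gave Eno2 0 after rounding, and the mean of all probe sets gave Pfkp 0 and Aldoc -0.19. With 1 array left out Hk1 ran from -0.06 to 0.54, Aldoc from -0.02 to 0.27, Pgk1 from -0.16 to 0.39 and Eno2 from -0.33 to 0.46. In transplanted SMA minus wild type, Pgk1 was -0.02 with quantile normalization, -0.01 without the arrays numbered 3 and -0.01 with hybridisation controls. Xist gave Hk1 -0.12, Pfkm -0.15, Aldoa -0.10 and Eno2 -0.47, and the mean of all probe sets gave Pfkl 0.15 and Aldoa 0. With 1 array left out Hk1 ran from -0.01 to 0.59, Pfkl from -0.17 to 0.05, Aldoa from 0 to 0.14, Pgk1 from -0.23 to 0.32 and Eno2 from -0.42 to 0.37.

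Among isoenzyme differences, leaving out 1 array, added after seeing the data, turned the sign of Ldhb minus Ldha (-0.25 to 0.44), Aldoc minus Aldoa (-0.15 to 0.17) and Pfkp minus Pfkm (-0.64 to 0.03) for transplanted SMA minus SMA, of Pfkp minus Pfkm (-0.04 to 0.63) and Hk1 minus Hk2 (-0.30 to 0.20) for SMA minus wild type, and of Pfkp minus Pfkm (-0.12 to 0.11) for transplanted SMA minus wild type.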

Other observations

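Genes of the hypoxia response, which shares targets with glycolysis, gave 0 calls by limma among 8 tested in each comparison. Of all tested probe sets 0.0442% passed in SMA minus wild type and 0% in the comparisons with transplanted SMA. Medians were -0.16 in SMA minus wild type, 0.11 in transplanted SMA minus SMA and 0.02 in transplanted SMA minus wild type. At an unadjusted limma p under 0.05 there were 1, 1 and 0 of 8 in that order, against 6.04%, 4.77% and 6.55% of all. Ddit4, a stress-induced brake on growth signalling that glucocorticoids also raise, averaged 158 ± 28.5 in transplanted SMA, 284 ± 97.4 in SMA and 144 ± 16.8 in wild type (SD, n = 3 each). Its difference was -0.74 (SE 0.25, limma adjusted p = 0.933) for transplanted SMA minus SMA and 0.85 (SE 0.25, adjusted p = 0.568) for SMA minus wild type, on the same SMA arrays. Ndrg1, a hypoxia-induced gene also made in myelinating cells and chosen after its values were seen, spanned 350.6 to 1419.8 in transplanted SMA, 86.8 to 997.8 in SMA and 261.4 to 859.7 in wild type, and the groups overlapped.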
